A study of Mus musculus with 4 samples.

Results

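Cells with decorin (Dcn) transcripts were described within a CD31 sort of the mouse aorta. The members were chosen by transcripts counted with unique molecular identifiers (UMIs, 1 per captured mRNA molecule): a kept cell had at least 1000 UMIs outside spike-in and mitochondrial rows and at most 25% mitochondrial UMIs, and a member had at least 1 Dcn UMI, at least 1 Pecam1 UMI (the gene of CD31) and fewer than 2 UMIs of Cd36 plus Fabp4, genes of fatty acid uptake. Of 441 kept cells among 1536 wells, 84 were members: 37 of 157 in EC-KO mouse 1, 17 of 98 in EC-KO mouse 2, 14 of 114 in EC-WT mouse 1 and 16 of 72 in EC-WT mouse 2. Because Dcn, Pecam1, Cd36 and Fabp4 selected the cells, their levels are given as description and were left out of every test.

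Each plate of 384 wells held live CD31+ CD45- aortic cells of 1 mouse, sorted 1 per well and processed by SORT-seq, a plate form of CEL-Seq2 that reads the 3′ ends of transcripts. All 4 mice carried floxed Epas1 (Epas1fl/fl) and received tamoxifen at 6 weeks of age, and aortas were taken 2 weeks later, the adventitia having been stripped with forceps. The 2 mice labelled EC-KO also carried Cdh5Cre/+, an inducible Cre driven by the promoter of the endothelial gene Cdh5, and the 2 labelled EC-WT did not (Cdh5+/+). With 2 mice a genotype, every comparison between genotypes rests on 2 against 2, and the plates of EC-KO mouse 2 and EC-WT mouse 1 shared a flow cell. The 4 plates held 910699 to 1475546 UMIs with spike-ins included. The targeted gene was not lower in mice labelled EC-KO: in members Epas1 stood at 2671 and 3581 CPM (UMIs of the gene in 1000000 UMIs, here and between genotypes without the 4 genes of the rule in the total) in the EC-KO mice and at 3471 and 2080 CPM in the EC-WT mice, so genotypes are named here by their labels. More kept cells came from the mice labelled EC-KO than from those labelled EC-WT. The study's methods state more cells from EC-WT mice, counted after the study's own quality control. Whether the labels were exchanged was not tested, and an exchange would turn every direction between genotypes given here. The 3′ tags may lie outside the deleted part of the gene, in which case they do not check the deletion.

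Decorin is a secreted small leucine-rich proteoglycan: a protein core of leucine-rich repeats with a glycosaminoglycan chain that binds collagen fibrils and TGF-beta. In the vessel wall it is mostly known as a product of adventitial fibroblasts and of smooth muscle, whereas CD31, VE-cadherin (Cdh5) and von Willebrand factor (Vwf) are products of the endothelium that lines the lumen. In the annotation of GRCm38, Dcn lies at chr10:97479609-97518143 on the plus strand and lumican (Lum), a related keratan sulphate proteoglycan, lies 46985 bp downstream at chr10:97565128-97572703 on the same strand.

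Most members carried little Dcn. A single Dcn UMI was seen in 40 of the 84 members (47.6%), 2 UMIs in 13, 3 to 9 UMIs in 20, and 10 or more in 11. Those 11 cells held 895 of the members' 1052 Dcn UMIs. The lowest, median and highest counts were 1, 2 and 393 in EC-KO mouse 1, 1, 1 and 21 in EC-KO mouse 2, 1, 2.5 and 19 in EC-WT mouse 1, and 1, 1 and 11 in EC-WT mouse 2. The counts overlapped fully between mice at their low end, and every member above 21 UMIs came from EC-KO mouse 1. The limit of 10 UMIs that sets the Dcn-rich cells apart below was chosen after these counts were seen.

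**Figure D1:**
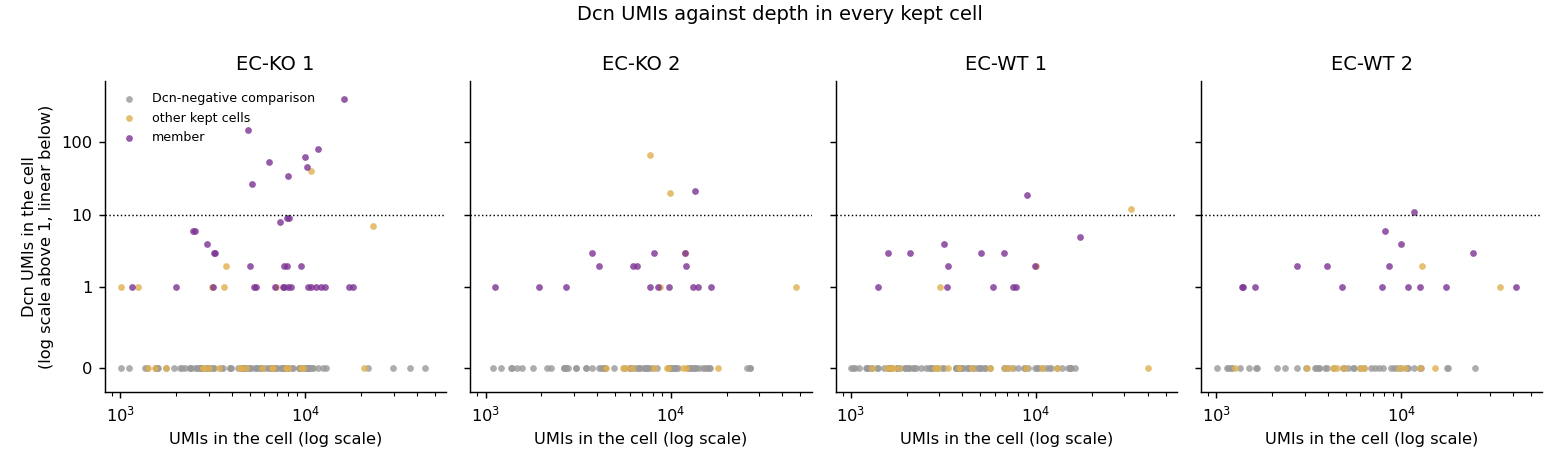
Dcn UMIs (y axis, logarithmic above 1) against all UMIs (x axis, logarithmic) for each of the 441 kept cells, 1 panel per mouse, with members in purple, Dcn-negative comparison cells in grey, other kept cells in yellow and a dotted line at 10 Dcn UMIs. Of the 11 members on or above the line 8 are in EC-KO mouse 1. Over all mice, members with 1 Dcn UMI run from 1126 UMIs (EC-KO mouse 2) to 41359 UMIs (EC-WT mouse 2).

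Dcn UMIs were also found where no cell had been kept. Plate rows L to P, 480 wells without a single kept cell and with a median of 47 UMIs, held 9 Dcn UMIs in 28791 UMIs, or 313 CPM (exact 95% Poisson interval 143 to 593). Pecam1 in the same rows was 5210 CPM (4410 to 6114). Because the rule fixes the Dcn count of a member, its Dcn rate cannot be set against these wells, and whether a single Dcn UMI came from the cell itself was not tested. These intervals and those below cover counting error only. Among the 66 kept cells with 2 or more Cd36 plus Fabp4 UMIs, which the rule left out, 14 (21.2%, exact binomial interval 12.1 to 33.0) held a Dcn UMI at a median of 6642 UMIs.

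Just outside the rule were 18 further Dcn-positive kept cells. Of these, 4 had no Pecam1 UMI and 1 Dcn UMI each, all in EC-KO mouse 1, and the other 14, from all 4 mice, had 2 or more Cd36 plus Fabp4 UMIs. The excluded cells richest in Dcn held 67 UMIs (EC-KO mouse 2, 7 Cd36 plus Fabp4 UMIs) and 40 UMIs (EC-KO mouse 1, 16 Cd36 plus Fabp4 UMIs). Inside the rule, 19 members carried 1 Cd36 or Fabp4 UMI and 1 member carried a single Pecam1 UMI, while the median member held 34.5 Pecam1 UMIs and the highest 226.

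The 8 Dcn-rich members of EC-KO mouse 1 lay in plate rows A to D, where 66 of that mouse's kept cells were. Their well barcodes, the designed sequences that assign each read to a cell, are shown because the mouse's Dcn signal rests on these wells, and they are listed in falling order of Dcn UMIs.
Well D4, 393 Dcn UMIs: aggtaaag
Well D22, 147 Dcn UMIs: acgttgta
Well B6, 82 Dcn UMIs: tcacccga
Well C12, 63 Dcn UMIs: cgggtgaa
Well A1, 53 Dcn UMIs: cgtctaat
Well D6, 45 Dcn UMIs: acaggcat
Well C3, 34 Dcn UMIs: gggattgt
Well D23, 27 Dcn UMIs: gcagagaa
Each of these 8 barcodes differed by at least 3 bases from every other barcode of the plate, that of any other member included. The same 384 barcodes were used on all plates, and 10 of the 73 barcodes that held a member did so on more than 1 plate, none of them on both plates that shared a flow cell (EC-KO mouse 2 and EC-WT mouse 1). On the plate of EC-KO mouse 1, in those wells of rows A to D that held no kept cell, Dcn stood at 3127 CPM (24 UMIs), against 356 CPM (3 UMIs) in rows L to P. Its part in the counts of neighbouring wells was not tested.

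The Dcn-rich members held Lum and Pecam1 side by side. Lum was found in 8 of the 11 (72.7%, exact interval 39.0 to 94.0), all 8 in EC-KO mouse 1, and summed to 187 UMIs, or 1751 CPM. The cell in well D4 held 393 Dcn, 103 Lum, 29 Prelp and 34 Col1a1 UMIs with 18 Pecam1, 4 Cdh5 and 1 Vwf UMIs of 16227. The cell in well D22 held 147 Dcn and 23 Lum UMIs with 27 Pecam1 UMIs of 4893. The cell in well A1 differed from the others: it held 70 Sfrp2, 73 Col1a2 and 14 Dpt UMIs with 6 Pecam1 UMIs and none of Cdh5, Vwf or Tek. Dpt, the gene of the fibroblast matrix protein dermatopontin, was seen in no other member and in no comparison cell.

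The endothelial genes of these cells ranged widely. Summed without Pecam1, the endothelial list reached 474 CPM in well A1, 1787 CPM in well D4, 2861 CPM in well D22 and 3808 CPM in well C12, against a median of 5899 CPM in the Dcn-rich members, 6828 CPM in the other 73 members and 7771 CPM in the 283 comparison cells. The cells in wells B6, D6 and D23 held 82, 45 and 27 Dcn UMIs and 12, 20 and 12 Vwf UMIs. In the 3 Dcn-rich members of the other mice, with 21, 19 and 11 Dcn UMIs, Pecam1 stood at 92, 42 and 94 UMIs, and Lum was not detected in any of them.

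**Figure D2:**
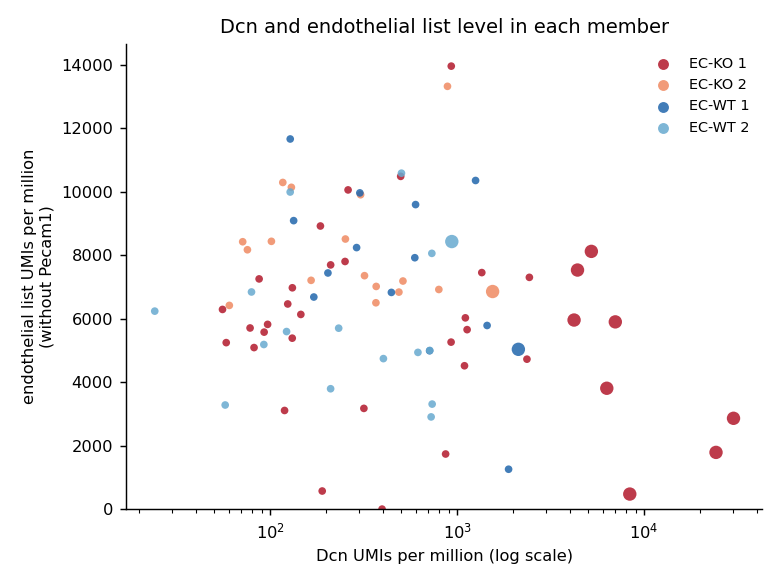
Level of the endothelial list without Pecam1 (y axis, CPM) against the Dcn level (x axis, CPM, logarithmic) in each of the 84 members, coloured by mouse, with large points for the 11 cells of 10 or more Dcn UMIs. The Dcn-rich cell lowest on the y axis, at 474 CPM, is the cell in well A1 of EC-KO mouse 1.

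Among the genes of the lists, those with the most UMIs in the Dcn-rich members were mostly at like levels in all classes of cells. Biglycan (Bgn), the small leucine-rich proteoglycan nearest to decorin in structure, stood at 6675 CPM in the Dcn-rich members, 6053 CPM in the other members and 5712 CPM in the comparison cells. In the same order elastin (Eln) stood at 5683, 4463 and 5294 CPM, clusterin (Clu) at 5374, 4989 and 4523 CPM, vimentin (Vim) at 4980, 5913 and 4160 CPM and osteonectin (Sparc) at 4812, 5295 and 4598 CPM. The BMP ligand Bmp4 stood at 3239, 2376 and 1605 CPM, the apolipoprotein Apoe at 3071, 2647 and 2191 CPM, the collagen chain Col1a2 at 2350, 882 and 810 CPM and the Wnt antagonist Sfrp1 at 1807, 2276 and 2639 CPM. The wells of Dcn-negative cells thus held UMIs of these genes too, and Col1a2 was found in 184 of 283. Rows L to P, without a kept cell, held Col1a2 at 1285 CPM, Apoe at 3543 CPM and Bmp4 at 1563 CPM. The part of such background in the counts of the cells was not tested. Chosen after their values were seen, the cardiac and outflow tract transcription factors Tbx20 and Hand2 were found in 6 and 4 of the 11 Dcn-rich members, all in EC-KO mouse 1, and in 2 and 6 of the 283 comparison cells.

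The share of cells with Lum was highest in the Dcn-rich members, given here as a description without a test. Lum was found in 4 of 283 comparison cells (1.41%, 0.386 to 3.58), in 4 of 40 members with 1 Dcn UMI (10%, 2.79 to 23.7), in 2 of 13 with 2 UMIs, in 4 of 20 with 3 to 9 UMIs (20%, 5.73 to 43.7) and in 8 of 11 with 10 or more. The median depths were 4915, 7748, 6562, 5894 and 9979 UMIs, so the classes also differed in depth. Rows L to P held no Lum UMI (0 of 480 wells, exact upper limit 0.766%). At a median of 47 UMIs a well, this share cannot be set against that of cells. As a level, the upper limit there was 128 CPM (exact Poisson interval). Lum stood below that limit in members with 1, 2 and 3 to 9 Dcn UMIs (23.0, 45.7 and 35.7 CPM), and at 1751 CPM in the Dcn-rich members. Whether Lum in members with fewer than 10 Dcn UMIs exceeded background was therefore not tested. Prelp, another gene of the small leucine-rich proteoglycan family, was found in 9.89% of comparison cells and in 12.5%, 7.69%, 15% and 81.8% of members in the same order. Its level was 243 CPM in rows L to P and 74.1 CPM in the comparison cells. Col1a1, which encodes the alpha 1 chain of type I collagen, was found in 7.77% of comparison cells and in 12.5%, 23.1%, 0% and 54.5% of members.

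**Figure D3:**
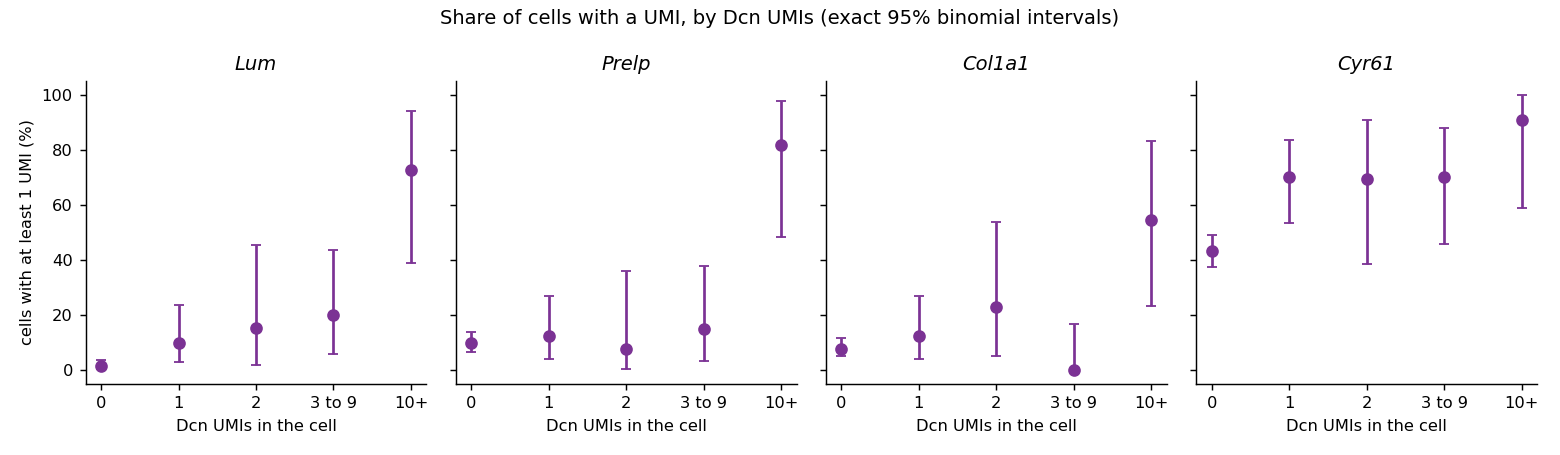
Share of cells with at least 1 UMI of Lum, Prelp, Col1a1 and Cyr61 (y axis, percent) in Dcn-negative comparison cells (0) and in members with 1, 2, 3 to 9 and 10 or more Dcn UMIs (x axis), with exact 95% binomial intervals over cells. Lum and Prelp reach 72.7% and 81.8% in the Dcn-rich cells, and Cyr61 is at 69.2% to 90.9% in every class of members against 43.1% in the comparison cells.

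To ask how members differ from other CD31-sorted cells of the same plate at equal depth, each member was paired with a Pecam1-positive, Dcn-negative cell of its own plate with nearly the same number of UMIs, the limit on Cd36 plus Fabp4 applying to both. Before pairing, the median depth of members was 7656, 8152, 5443 and 8377 UMIs (EC-KO 1, EC-KO 2, EC-WT 1, EC-WT 2, the order of all 4 values below) against 5426, 6755, 3692 and 4917 UMIs in the comparison cells. After pairing, 80 members remained (34, 17, 14 and 15) with medians of 7606, 8152, 5443 and 8159 UMIs against 7547, 7933, 5328 and 7984. The cell in well D4 found no partner and stands outside the tests that follow. UMIs were summed per mouse and class and tested with edgeR (quasi-likelihood test, mouse as a block, adjusted p under 0.05 called).

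Of 2594 genes tested, 2 were called higher in members (0.0771%) and 0 lower (0%). Unadjusted, 146 genes (5.63%) had a p under 0.05, 78 higher and 68 lower. The higher genes were Cyr61, which encodes a secreted matricellular protein and is a target of the YAP and TAZ coactivators, and Aqp1, which encodes the water channel aquaporin 1. Neither call held when the comparison cells were taken without the limit on Cd36 plus Fabp4, the wider set of all Pecam1-positive, Dcn-negative kept cells: 0 genes were called in edgeR, with 126 at an unadjusted p under 0.05, and the log2 fold change was 1.13 for Cyr61 (adjusted p = 0.239) and 0.11 for Aqp1 (adjusted p = 0.993). DESeq2 called Cyr61 alone, with 46 genes at an unadjusted p under 0.05.

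Cyr61 stood at 856, 1085, 334 and 629 CPM in members and at 342, 303, 120 and 297 CPM in the paired comparison cells. It was higher in members in each mouse, although the range of members overlapped that of the comparison cells across mice. The log2 fold change was 1.44 (SE 0.20, adjusted p = 0.00127 in edgeR). It was not called without depth matching (1.04, adjusted p = 0.0576) or after thinning each cell to 1000 UMIs (0.91, adjusted p = 0.444). It was called in neither of the fits that left out an EC-KO mouse (adjusted p = 0.0736 without EC-KO mouse 1 and 0.110 without EC-KO mouse 2), with log2 fold changes of 1.49 and 1.30. Without the 11 Dcn-rich members it was 1.44 (adjusted p = 0.00725), and with members of exactly 1 Dcn UMI it was 1.55 (adjusted p = 0.177).

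Aqp1 stood at 468, 70.5, 286 and 1367 CPM in members and at 114, 70.4, 72.3 and 578 CPM in the paired cells. Members were thus higher in 3 mice and level in EC-KO mouse 2, where both classes held 10 UMIs. The log2 fold change was 1.45 (SE 0.26, adjusted p = 0.0305 in edgeR). It was not called without the 11 Dcn-rich members (1.31, adjusted p = 0.0948) or without EC-KO mouse 1 (1.16, adjusted p = 0.980). Without depth matching it was 0.32 (adjusted p = 0.942), and after thinning 1.22 (adjusted p = 0.503).

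Below the threshold lay several genes with changes of similar size, named here after their values were seen. Thbs1, the gene of the matricellular protein thrombospondin 1, held 52, 47, 11 and 36 UMIs in members and 2, 22, 4 and 25 in paired cells (log2 fold change 1.55, SE 0.40, adjusted p = 0.287 in edgeR). S100a4 held 93 against 23 UMIs in all (2.01, SE 0.45, adjusted p = 0.146), and the endothelial sialomucin Emcn 131 against 50 UMIs (1.40, SE 0.36, adjusted p = 0.287). The growth factor gene Igf2 held 34, 6, 16 and 0 UMIs in members and 129, 27, 23 and 16 in paired cells (-1.78, SE 0.37, adjusted p = 0.0968).

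**Figure D4:**
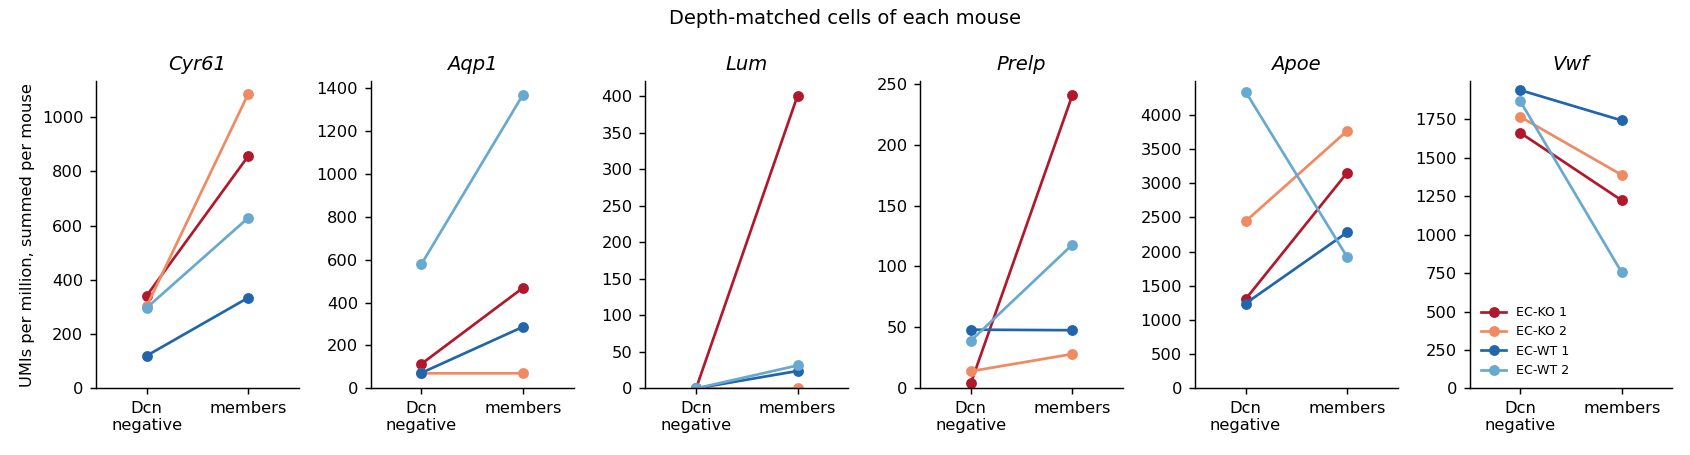
Level of 6 genes (y axis, CPM, from 0) in the depth-matched Dcn-negative cells and members of each mouse, 1 coloured line per mouse. Cyr61 is higher in members in all 4 mice, Aqp1 is level at 70.4 and 70.5 in EC-KO mouse 2, Lum is above 0 in the members of 3 mice, and Apoe is lower in the members of EC-WT mouse 2 only.

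Of the 5 genes that marked the label, Lum followed Dcn most closely. In the paired cells it held 95, 0, 2 and 4 UMIs in members of the 4 mice and 0 in all comparison cells, which makes it at least 33.7-fold higher against a floor of 3 UMIs over the comparison group. It was found in 17 of 80 paired members, 13 of them in EC-KO mouse 1, 2 in each EC-WT mouse and 0 in EC-KO mouse 2, and in 0 of 80 comparison cells, which allows a share of up to 3.75%. The filter on low counts kept Lum out of the test. In edgeR Lum was called with no filter (adjusted p = 2.1e-10) and with a mean of at least 10 UMIs (adjusted p = 0.00065). With 0 UMIs in comparison cells, it entered both settings only through its counts in members, and it was a label marker. These 2 calls are therefore given as description and not as support. The difference of Lum rests mostly on EC-KO mouse 1.

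The other label markers separated the classes less. Apoe, the gene of apolipoprotein E, stood at 3149, 3763, 2279 and 1925 CPM in members and at 1303, 2442, 1241 and 4338 CPM in paired cells. It was higher in members of 3 mice and lower in EC-WT mouse 2 (log2 fold change 0.43, SE 0.27, adjusted p = 0.995 in edgeR), and it was called when EC-WT mouse 2 was left out (0.96, adjusted p = 0.00042). Col8a1, a network-forming collagen of the intima, held 31, 8, 3 and 21 UMIs in members and 11, 4, 12 and 49 in paired cells (-0.17, SE 0.44, adjusted p = 0.997). Its value was -0.90 without EC-KO mouse 1 and 0.12 without EC-WT mouse 1. Sfrp2, a secreted Wnt modulator of fibroblasts, held 74, 8, 1 and 4 UMIs against 2, 0, 5 and 2, and 70 of its UMIs came from the cell in well A1. It was too low to be tested, and with no filter it was called (log2 fold change 2.76, adjusted p = 0.0017 in edgeR).

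The family of small leucine-rich proteoglycans was measured for 14 of the 16 genes listed. Besides Dcn and Lum, Prelp held 57, 4, 4 and 15 UMIs in members and 1, 2, 4 and 5 in paired cells, and osteoglycin (Ogn) held 35, 1, 8 and 2 against 1, 2, 1 and 0. For both genes the excess over paired cells was greatest in EC-KO mouse 1. Both were called only with no filter on low counts (adjusted p = 0.0048 for Prelp and 0.037 for Ogn in edgeR). Without depth matching the log2 fold change was 0.88 for Prelp (adjusted p = 0.873) and 0.12 for Ogn (adjusted p = 0.993). Over all comparison cells, paired or not, Ogn stood at 96.9 CPM, against 159 CPM in the Dcn-rich and 60.8 CPM in the other members. In the same order Prelp stood at 74.1, 740 and 52.1 CPM. Bgn stood at 5970, 6926, 6695 and 4368 CPM against 5041, 6277, 5746 and 6628 CPM (log2 fold change 0.02, SE 0.16, adjusted p = 0.998), and Ecm2 held 108 against 117 UMIs (-0.14, SE 0.27, adjusted p = 0.995). Osteomodulin (Omd) held 16 against 13 UMIs, asporin (Aspn) 0 against 5, keratocan (Kera) 0 against 1, podocan (Podn) 1 against 1, chondroadherin (Chad) 17 against 10, tsukushi (Tsku) 3 against 0, nyctalopin (Nyx) 0 against 1, and fibromodulin (Fmod) was not detected in either class. Of the family, 0 of the 2 genes tested, Bgn and Ecm2, were called.

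The endothelial list without Pecam1 summed to 5818, 7948, 7913 and 5790 CPM in members and to 7213, 8669, 7842 and 7464 CPM in paired cells, lower in members of 3 mice. Of 15 endothelial genes, 11 were tested and 0 were called in either direction, 8 with a log2 fold change below 0 and 3 above, with a median of -0.09 against -0.01 over all genes tested. Vwf stood at 1223, 1388, 1742 and 754 CPM in members and at 1662, 1766, 1939 and 1868 CPM in paired cells, lower in each mouse (-0.54, SE 0.18, adjusted p = 0.583 in edgeR). The angiopoietin receptor gene Tek held 400 against 534 UMIs (-0.43, SE 0.16, adjusted p = 0.583), Tie1 552 against 588 (-0.03, SE 0.16) and Egfl7 424 against 450 (-0.09, SE 0.17). Cdh5 held 247 UMIs in each class, and the TGF-beta co-receptor gene Eng 222 against 179 (0.31, SE 0.21). Emcn, described above, had the smallest p of the list, in the higher direction, and was called when EC-WT mouse 2 was left out. Cldn5, a tight junction gene that held 242 against 366 UMIs (-0.50, SE 0.27), was called lower when EC-WT mouse 1 was left out. Of 10 arterial genes 7 were tested and 0 called, with a median of 0.18, the kinase gene Bmx holding 263 against 237 UMIs, the gap junction gene Gja4 206 against 182, the ephrin gene Efnb2 162 against 137 and the receptor gene Notch1 153 against 176. The smallest p of the list was that of the gap junction gene Gja5, at 124 against 199 UMIs (-0.73, SE 0.26, adjusted p = 0.583).

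Collagen and elastic fibre genes did not pass the test either. Of 8 fibrillar collagen genes 4 were tested, all 4 had a log2 fold change above 0 (median 0.59) and 0 were called. Col3a1 stood at 780, 190, 107 and 306 CPM in members and at 169, 232, 108 and 211 CPM in paired cells (0.88, SE 0.33, adjusted p = 0.583), so that EC-KO mouse 1 set most of its difference. Col1a2, which was called higher when cells were thinned to 1000 UMIs, held 587 against 406 UMIs (0.46, SE 0.20, adjusted p = 0.749), Col5a1 107 against 67 (0.72, SE 0.29, adjusted p = 0.685) and Col5a2 388 against 354 (0.12, SE 0.17). Col1a1, too low to be tested, held 71, 6, 0 and 1 UMIs against 3, 2, 2 and 6. Of the basement membrane list 9 of 14 genes were tested and 0 called (median 0.02), Col4a1 holding 287 against 291 UMIs, Lamb2 223 against 232, Col4a2 147 against 107 and Hspg2 136 against 142. Of the elastic fibre list 9 of 19 were tested and 0 called (median -0.03), Eln holding 2878 against 3261 UMIs, Ltbp4 1114 against 1117, Fbln2 844 against 858 and Fbln5 473 against 519.

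Among secreted and signalling genes, Cyr61 was the only one called. Of 14 matricellular genes 5 were tested, 4 had a log2 fold change above 0 (median 0.85) and 1, Cyr61, was called higher. Sparc held 3029 against 2783 UMIs (0.15, SE 0.14) and fibronectin (Fn1) 879 against 916 (-0.02, SE 0.19). Of 12 flow-responsive genes 10 were tested and Cyr61 alone was called, while the shear-induced factor Klf2 held 499 against 605 UMIs (-0.04, SE 0.23). Its relative Klf4 held 79, 112, 45 and 48 UMIs against 227, 158, 50 and 57, lower in members of each mouse (-0.64, SE 0.21, adjusted p = 0.583). Of 20 genes of TGF-beta and BMP signalling 12 were tested and 0 called (median 0.05), Bmp4 standing at 2686, 2043, 2196 and 2616 CPM against 1240, 1675, 1903 and 2642 CPM (0.42, SE 0.18, adjusted p = 0.731). Of 11 genes of the mesenchymal transition 5 were tested and 0 called (median 0.28), Vim holding 3263 against 2577 UMIs (0.36, SE 0.15, adjusted p = 0.719) and the transcription factor Twist1 216 against 189. No gene was called on the lists of lipid transport (4 tested of 11), complement (4 of 9), secreted Wnt modulators (2 of 8), other interstitial collagens (1 of 8) or immediate early genes (9 of 14), the last of which bear on dissociation stress, with Jun at 228 against 242 UMIs.

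**Figure D5:**
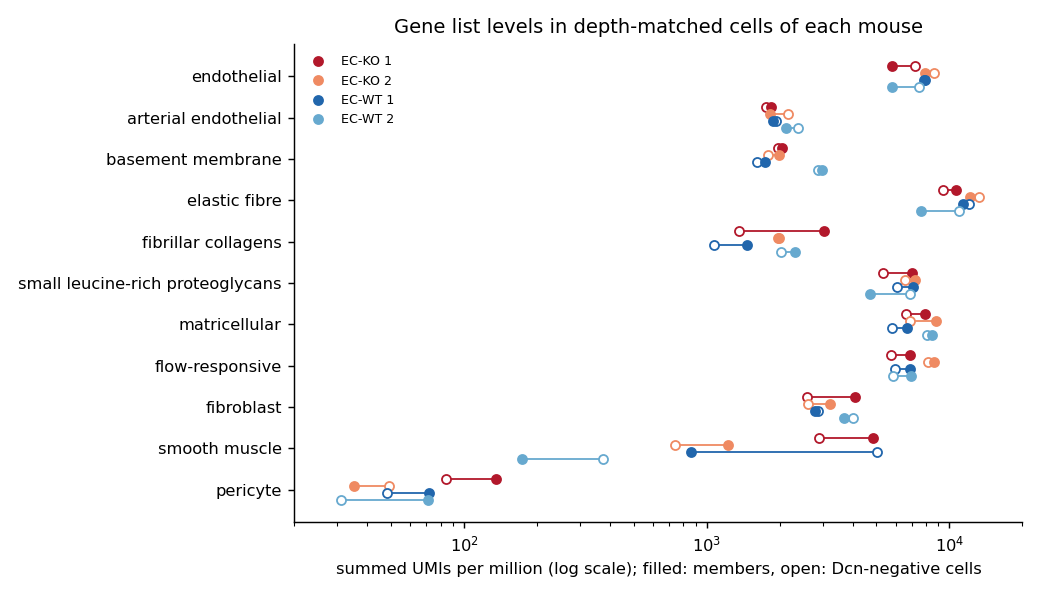
Summed level of 11 gene lists (x axis, CPM, logarithmic), without the genes of the rule, in depth-matched members (filled points) and Dcn-negative cells (open points), 1 line per mouse. The smooth muscle list runs from 173 to 5011 CPM and changes direction between mice, and the endothelial list stays between 5790 and 8669.

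Markers of other cell types were compared over the same pairs. The fibroblast list without Dcn summed to 4085, 3220, 2805 and 3677 CPM in members and to 2594, 2611, 2879 and 4002 CPM in paired cells, higher in members of the EC-KO mice and lower in members of the EC-WT mice. Of its 5 genes tested 0 were called, and Ly6a, Col1a2, Mfap5 and Col3a1, which carried most of its counts, were found in the Dcn-negative cells too, in 70, 61, 70 and 31 of the 80. The defining fibroblast gene Pdgfra was found in 1 of 84 members and in 8 of all 283 comparison cells. With Dcn and Pecam1 counted in their lists, fibroblast UMIs reached the endothelial ones in 12 of 84 members and in 5 of 283 comparison cells. The 12 were 9 in EC-KO mouse 1 and 3 in EC-WT mouse 2. Dcn is at 0 in comparison cells by the rule, so the 2 counts cannot be set against each other. In well C12, for example, the fibroblast list without Dcn stood at 2605 CPM, below the endothelial list without Pecam1 at 3808 CPM. Without all such cells, a removal that thus used Dcn, Cyr61 was still called (adjusted p = 0.00105 in edgeR) and Aqp1 was not (adjusted p = 0.0528).

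The smooth muscle list summed to 4844, 1219, 859 and 173 CPM in members and to 2889, 739, 5011 and 375 CPM in paired cells, higher in members of both EC-KO mice and lower in those of both EC-WT mice. A few cells carried these sums: among members of EC-KO mouse 1 the list stood at 84359 CPM in well G21 (2 Pecam1 UMIs), 81322 CPM in well F10 (1 Pecam1 UMI) and 23384 CPM in well D19, and among those of EC-WT mouse 1 at 35804 CPM in well H19, while no other member was above 5329 CPM. In the paired cells of EC-WT mouse 1, Myh11 was found in 2 of 14 cells and Tagln in 3. The list's UMIs reached those of the endothelial list in 5 of 84 members and 9 of 283 comparison cells. None of its 4 genes tested was called between members and comparison cells, and both called genes kept their calls without such cells. The pericyte list summed to at most 135 CPM in any class and mouse, and its Rgs5 and Kcnj8 were at 0. The 4 immune genes measured of 10 listed reached 23.9 CPM at the highest, with Ptprc (CD45), whose protein the sort gated out, at 0. The highest sums of the lymphatic, mesothelial, Schwann, valve endothelial and erythroid lists were 133, 75.9, 48.2, 212 and 23.9 CPM, and the adipocyte list was at 0, over the 4 of 7, 4 of 8, 3 of 5, 3 of 5, 1 of 5 and, for adipocytes, 2 of 5 genes that were measured. The part of these cell types in the results for Lum and Prelp was not tested.

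Members made up 23.6% (exact binomial interval 17.2 to 31.0) and 17.3% (10.4 to 26.3) of kept cells in the EC-KO mice and 12.3% (6.88 to 19.7) and 22.2% (13.3 to 33.6) in the EC-WT mice. The means were 20.5% ± 4.40 (SD, n = 2) and 17.3% ± 7.03 (SD, n = 2), the ranges overlapped, and the difference of 3.21 percentage points was smaller than the spread between the EC-WT mice (exact two-sided permutation p = 0.667, where 0.33 is the smallest that 2 against 2 allows). When each cell was thinned to 1000 UMIs before the rule was applied, the shares were 11.3%, 7.26%, 6.29% and 7.86%. Members with at least 3 Dcn UMIs made up 10.2%, 4.08%, 6.14% and 5.56% of kept cells.

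Within members, EC-KO and EC-WT were compared over UMIs summed per mouse, for all members rather than the paired ones. Of 3171 genes tested, 0 were called in either direction (0%) in edgeR, with 124 at an unadjusted p under 0.05 (76 higher and 48 lower in EC-KO), and DESeq2 called 0. Epas1 had a log2 fold change of 0.24 (SE 0.31, adjusted p = 0.998). Its value ran from -0.04 to 0.69 with 1 mouse left out and was -0.13 after thinning to 1000 UMIs. Apoe stood at 2787 and 3794 CPM in EC-KO and at 2294 and 1966 CPM in EC-WT members (0.69, SE 0.29, adjusted p = 0.998). Cyr61 stood at 831 and 1094 CPM against 336 and 501 CPM (1.23, SE 0.32, adjusted p = 0.765). Of the smooth muscle list 6 genes were tested and 0 called, with a median log2 fold change of 2.17, Myh11 being nearest to the threshold (5.77, SE 0.96, adjusted p = 0.0522) at 102 and 14 UMIs in EC-KO against 0 and 1 in EC-WT.

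The difference between members and paired cells was itself compared between genotypes. Of 2594 genes, 4 were called with a larger difference in EC-KO (0.154%) and 1 with a smaller one (0.0386%). The larger differences were in Myh11 (6.38 on the log2 scale, SE 0.96), Tagln (3.40, SE 0.51) and Acta2 (2.52, SE 0.37), contractile genes of smooth muscle, each with adjusted p = 9.5e-05 in edgeR, and in Fbln5 (1.82, SE 0.34, adjusted p = 0.0040), which encodes an elastic fibre protein. The smaller one was in the cell cycle inhibitor Cdkn1a (-3.18, SE 0.66, adjusted p = 0.0136). Acta2 held 512, 114, 34 and 10 UMIs in members and 335, 69, 128 and 31 in paired cells, and Tagln held 272, 21, 17 and 2 against 184, 9, 124 and 3. Without depth matching the difference of Acta2 was -0.51 and that of Tagln -1.40, the opposite direction, and neither was called. Without cells whose smooth muscle UMIs reached the endothelial ones, Fbln5 (1.73, adjusted p = 0.0232) and Cdkn1a (-3.34, adjusted p = 0.0290) remained called. That removal used Acta2, Myh11 and Tagln themselves, so it does not test them. Each mouse bore on these calls. With EC-KO mouse 1 or EC-KO mouse 2 left out, 0 genes were called in edgeR (89 and 67 at an unadjusted p under 0.05), while the differences stayed at 2.56 and 2.50 for Acta2, 3.82 and 3.26 for Tagln and 1.62 and 2.03 for Fbln5. Without EC-WT mouse 1, Tagln was 1.29 (adjusted p = 0.941) and Myh11 3.48 (adjusted p = 0.347). Without EC-WT mouse 2, Myh11 was 10.36 and still called, and Cdkn1a was -1.99 (adjusted p = 0.669). Without depth matching 0 genes were called (172 at an unadjusted p under 0.05), with Fbln5 at 1.75, Myh11 at 2.63 and Cdkn1a at -1.35. DESeq2 called Acta2 alone.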

How the data were processed

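UMI counts per gene and well, deposited for each plate, were used as the authors made them from CEL-Seq2 reads. The deposited read counts and the deposited estimated counts of transcripts, in which 1 UMI stays 1 and higher counts are slightly raised, served as alternatives. The submitters' processing notes name BWA 0.7.15, Seurat and GRCm38 (mm10), and the annotation is not given in the sources used here. Gene positions came from GENCODE for GRCm38.

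The members and lists were chosen with earlier results of these data known. UMIs were summed per mouse and class over pairs matched within 0.25 log2 units of UMIs, and tested with edgeR 4.0.16 in R 4.3.3 (TMM, filterByExpr, quasi-likelihood test, Benjamini-Hochberg over all genes tested, 0.05), or DESeq2 1.42.0 as an alternative. Single values were handled in Python 3.11.15. Mice are the replicates, 1 plate each. The test script was tested on simulated data. No doublet caller was run.

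Named genes were the label markers, Epas1, called genes, measured small leucine-rich proteoglycans, up to 4 of the highest genes of each list and the 10 list genes with most UMIs in Dcn-rich cells, 1 of which is not reported here. Emcn, Igf2, Tbx20, Hand2, Col1a1, Cdh5, Eng, Cldn5, Gja5, Klf4, Dpt and Pdgfra were named after their values were seen. Alternatives were other filters, matching, thinning, Dcn and depth limits, count types, and leaving out mice or cells.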

Additional observations from a re-analysis of the deposited data

Results flagged for a closer look

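In 5 genes the difference between members and depth-matched Dcn-negative cells itself differed between genotypes by the interaction term in edgeR. It was larger in EC-KO for Acta2 (2.52 on the log2 scale), Myh11 (6.38), Tagln (3.40) and Fbln5 (1.82), and smaller for Cdkn1a (-3.18), which held 20, 34, 7 and 40 UMIs in members and 74, 53, 4 and 7 in paired cells. With 1 mouse left out the value ran from 3.48 to 10.36 for Myh11, which was not tested without EC-KO mouse 1, from 1.29 to 3.82 for Tagln and from -3.77 to -1.99 for Cdkn1a. Without EC-WT mouse 1 Tagln and Myh11 were not called, without EC-WT mouse 2 Cdkn1a was not, and without either EC-KO mouse no gene was called. Without depth matching the direction reversed for Acta2 (-0.51) and Tagln (-1.40). Without cells of high smooth muscle list Fbln5 (1.73) and Cdkn1a (-3.34) were still called. For Acta2, Myh11 and Tagln, which that removal used, the part of smooth muscle content was not tested.

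Outside the kept cells, 9 Dcn UMIs were counted in wells of plate rows L to P, which held no kept cell.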

How the results depend on the processing

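Between members and Dcn-negative cells, against 2 genes called, Cyr61 alone (1 gene) was called with DESeq2, with at least 3 Dcn UMIs, without cells of high fibroblast list, without cells over 3 times the median UMIs, with a minimum of 2000 UMIs and without the Dcn-rich members. After thinning to 1000 UMIs 1 other gene, Col1a2, was called and neither of the 2. In edgeR 0 were called with comparison cells not limited by Cd36 and Fabp4 (126 at an unadjusted p under 0.05), at least 2 Dcn UMIs (84), read counts (217), members with exactly 1 Dcn UMI (42), and no replicate block, that is no mouse term (109). With a mean of at least 10 UMIs 3 were called, Aqp1, Cyr61 and Lum, the last kept by that limit only through its counts in members. There were 11 without a filter on low counts, both genes among them. Without depth matching there were 6 (Ctla2a, Lmo4, S100a4 and Wwtr1 higher, Igf2 and Mob2 lower), neither of the 2 among them. Leaving out 1 mouse gave 0 (without EC-KO mouse 1, 117 at an unadjusted p under 0.05) to 8 (without EC-WT mouse 2). The members with exactly 1 Dcn UMI and the removal of Dcn-rich members were chosen after seeing the data.

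Between genotypes within members, against 0, the counts were 19 without a filter, 1 without the member richest in Dcn of each mouse, and 0 to 33 with 1 mouse left out (33 without EC-WT mouse 1). With mouse number as a replicate block 3 genes were called, but same-numbered mice did not deviate together (r = -0.0245 across 3171 genes, which are not independent replicates), so they share only a number.

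For the difference between genotypes, against 5, the counts were 1 with DESeq2, 9 without a filter and with a mean of at least 10 UMIs, 0 without depth matching, 2 without cells of high smooth muscle list (added after the data were seen), and 0 to 17 with 1 mouse left out (17 without EC-WT mouse 1). Without depth matching Acta2 (-0.51) and Tagln (-1.40) reversed. The share difference ran from -1.77 percentage points (without EC-WT mouse 1) to 8.18 (without EC-WT mouse 2). The cause was not tested for any of these.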
